A study of Rattus norvegicus with 6 samples.

Results

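The genes described here are 8 rat genes of the retinoid pathway: Crabp1 and Crabp2, which bind retinoic acid in the cell, Aldh1a1 and Aldh1a2, which make it, Rara, Rarb and Rxra, which are its nuclear receptors, and Stra6, which takes up retinol. They were found by symbol in the platform annotation, which names them on 11 probe sets, each with 1 symbol in its field, out of 10412 genes named by probe sets of 1 symbol. The genes were proposed with the results of the comparison of blood with marrow cultures known, so that comparison is given for them as a description and not as a test.

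RNA was measured in cultured mesenchymal stromal cells, which adhere to plastic and resemble fibroblasts, and which were raised from mononuclear cells. There were 3 cultures from peripheral blood and 3 from bone marrow, 1 of each from each of 3 GFP transgenic rats, which the labels name S4, S5 and S6. All cells, in both groups, carried the GFP transgene, were isolated on a density gradient, were grown in the same serum-containing medium with no retinoid named in the labels' protocols, and were harvested at passage 2. Each culture was hybridised to 1 Affymetrix RAE230A array. The labels name no age, strain or transgene promoter. Cells were selected by adherence, so a culture may hold more than 1 cell type.

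Retinol reaches cells from the blood bound to a carrier protein, and the membrane receptor encoded by Stra6 takes it up. Dehydrogenases oxidise it to retinal, and enzymes of the ALDH1A family oxidise retinal to retinoic acid, the active form. CRABP2 delivers retinoic acid to its receptors in the nucleus, whereas CRABP1 is linked to its turnover in the cytosol. Receptors of the RAR family pair with RXR on response elements in DNA, and enzymes of the CYP26 family break the ligand down. In the embryo ALDH1A2 is the main source of retinoic acid in mesoderm, and it is known from the mesothelium and the epicardium, while Rarb is a classical target gene of its own ligand.

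Values are log2 signals of probe sets, on the scale of the deposited table, whose median was 8.18. No detection calls were used here, so a level well under that median may lie near an unknown background, and its fold is approximate. Levels of different probe sets are not compared, because each has its own response. Array medians lay between 8.12 and 8.22. Of the stromal markers, such as Col1a1 and Cd44, 12 of 12 lay above the table's median on at least 3 arrays, with Thy1 on only 3. So did 10 of the 15 macrophage markers named on the array. Of the 10412 genes named by probe sets of 1 symbol 6110 did so. The blood culture of rat S5 stood apart from the other blood cultures. The SD of its log2 differences over all probe sets was 0.566 against the blood array of rat S4 and 0.564 against that of S6, while those arrays differed from each other by 0.400. Against the marrow arrays of rats S4, S5 and S6 it was 0.546, 0.564 and 0.616. The blood array of S5 thus lay about as near to marrow arrays as to blood arrays. For the blood arrays of S4 and S6 the SD against marrow arrays was 0.608 to 0.707. Aldh1a2 and some of the pathway genes, though not every one whose value shifted, are therefore also given without rat S5. Blood arrays were washed in fluidics module 1 for rats S4 and S6 and module 3 for S5. Marrow arrays were in module 2 for S4 and S6 and module 4 for S5. No module number held both sources, so module and source of the cells cannot be told apart. Rats S4 and S5 were on station 1 and S6 on station 2, so the module numbers shared by S4 and S6 belonged to different stations. Each array was alone in its combination of station and module. Culture and that combination therefore cannot be told apart for any array.

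In blood cultures Crabp2 was lower and Aldh1a2 higher than in marrow cultures, whereas the other 9 probe sets of the 8 genes differed by less than 0.5 log2 units. Crabp2 had the smaller signal in the blood culture of every rat. Aldh1a2 was high in the blood cultures of rats S4 and S6 and near its marrow level in that of rat S5. In cultures of mixed cells, fewer cells of a type and less RNA per cell cannot be told apart. The promoters of Crabp2 and Aldh1a2 are shown because these genes had the widest differences, and that of Rarb, chosen after the search, because it holds the one direct repeat found. They are RefSeq windows of the GRCr8 build, from 250 bases before to 50 bases after each gene's start, on the + strand, at chr2:175714612-175714911 for Crabp2, chr8:80758391-80758690 for Aldh1a2 and chr15:11336142-11336441 for Rarb. Capitals mark the receptor hexamer AGGTCA and its variants on either strand, of which 1 reads GGGTCA, another reads AGTTCA and the third reads GGTTCA, and the whole of any direct repeat of them.
Crabp2: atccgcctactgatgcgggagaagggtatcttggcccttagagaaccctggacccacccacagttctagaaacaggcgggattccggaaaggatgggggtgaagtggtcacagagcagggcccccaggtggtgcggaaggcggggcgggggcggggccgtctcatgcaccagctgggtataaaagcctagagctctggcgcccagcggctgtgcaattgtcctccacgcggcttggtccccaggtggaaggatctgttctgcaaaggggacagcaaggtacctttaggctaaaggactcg
Aldh1a2: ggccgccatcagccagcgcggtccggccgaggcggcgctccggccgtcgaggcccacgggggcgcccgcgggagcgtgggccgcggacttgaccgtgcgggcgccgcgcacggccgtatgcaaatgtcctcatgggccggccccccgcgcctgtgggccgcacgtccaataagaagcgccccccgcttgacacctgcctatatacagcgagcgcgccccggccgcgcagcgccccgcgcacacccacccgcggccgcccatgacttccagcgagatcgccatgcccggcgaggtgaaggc
Rarb: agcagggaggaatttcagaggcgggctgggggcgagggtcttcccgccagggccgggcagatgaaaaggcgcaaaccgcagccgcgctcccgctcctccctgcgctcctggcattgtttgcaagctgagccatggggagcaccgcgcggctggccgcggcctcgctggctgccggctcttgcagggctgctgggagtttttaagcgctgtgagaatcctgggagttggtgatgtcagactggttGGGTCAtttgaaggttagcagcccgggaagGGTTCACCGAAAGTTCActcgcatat
Promoter windows of all 8 members were found, and both strands were searched for direct repeats of these hexamers spaced by 1, 2 or 5 bases. A repeat was found in 1 of the 8, that of Rarb, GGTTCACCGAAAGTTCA at bases 25 to 41 after the annotated start, with a spacing of 5. Among 27457 rat promoter windows of the same length 0.375% held a repeat of that spacing, 0.251% one with a spacing of 1 and 0.160% one with a spacing of 2. A single hexamer was found in 4 of the 8 members, Aldh1a1, Rara, Rarb and Stra6, and in 43.8% of all windows. The windows of Crabp2 and Aldh1a2, the members with the widest differences, and those of Crabp1 and Rxra held no hexamer, which says only that these letters are not in these windows.

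Among the binding proteins, Crabp2 stood at 5.37, 5.40 and 5.20 in the blood cultures of rats S4, S5 and S6, against 7.42, 8.41 and 8.69 in their marrow cultures. The groups did not overlap, the blood cultures lay within a narrow range, and the marrow cultures spread more widely, with that of rat S4 lowest. The difference was -2.05, -3.01 and -3.49 within rats S4, S5 and S6. Its mean was -2.85 ± 0.30 (SE of the limma fit, n = 3 rats), with an SD over rats of 0.73. Blood cultures were thus 7.21-fold lower, from means of 5.32 ± 0.11 and 8.17 ± 0.67 (SD, n = 3 each). Here and below, the SE of a difference is limma's moderated one, drawn toward the spread of all probe sets. It can be narrower or wider than an SE from the rats alone, and is narrower for Crabp2. Leaving out rats S4, S5 and S6 in turn gave -3.25, -2.77 and -2.53. All 3 blood levels lay far below the median of the table, so the fold is approximate. Of all 15866 probe sets 0.479% had a difference of this size or larger in either direction.

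Crabp1, the relative of Crabp2, behaved otherwise and did not separate the groups. It stood at 9.01, 9.22 and 9.14 in blood cultures and 9.23, 9.28 and 8.66 in marrow cultures, with a mean difference of 0.07 ± 0.18 (SE). The marrow culture of rat S6 was the lowest of the 6 arrays, and without that rat the mean difference was -0.14. The 2 binding protein genes thus differed in their values across the same 6 arrays, Crabp2 over a range of 3.49 log2 units and Crabp1 over 0.62.

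**Figure D1:**
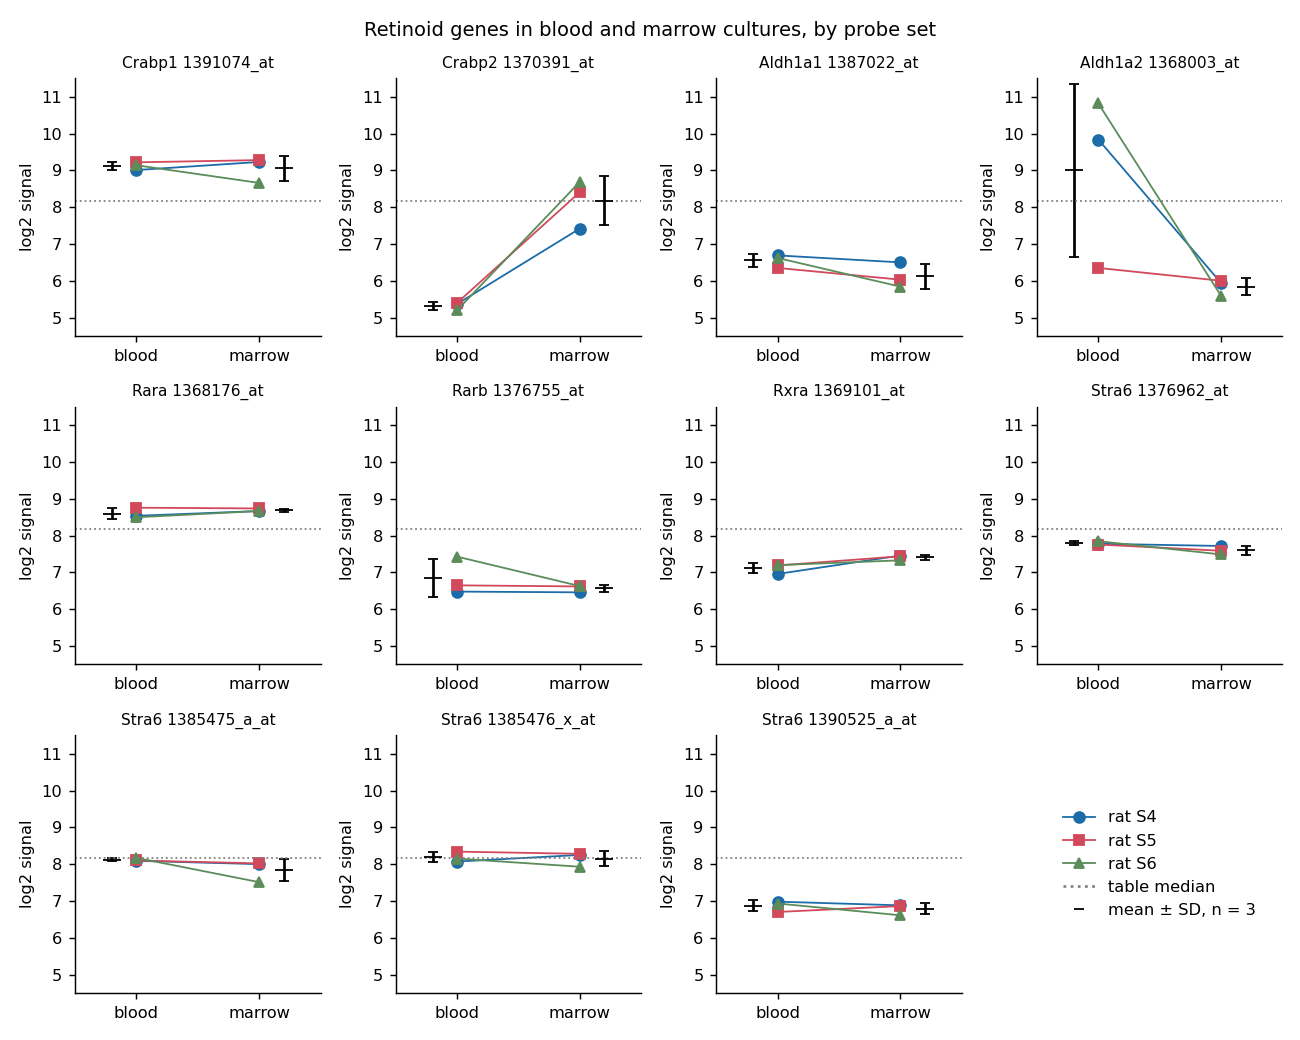
Log2 signal of the 11 probe sets of the 8 genes in blood cultures (left) and marrow cultures (right), with lines joining cultures of the same rat, black bars for the mean ± SD of 3 arrays, and a dotted line at the table median of 8.18. Crabp2 is low in all 3 blood cultures, and Aldh1a2 is high in the blood cultures of rats S4 and S6 and at 6.35 in that of rat S5.

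Of the synthesis enzymes, Aldh1a2, retinaldehyde dehydrogenase of mesodermal tissues, stood at 9.84, 6.35 and 10.82 in the blood cultures of rats S4, S5 and S6, against 5.94, 6.0 and 5.59 in marrow cultures. The marrow cultures were alike and low. Every blood culture exceeded every marrow culture, but that of rat S5 did so by a small margin. Within rats the difference was 3.90 in S4, 0.35 in S5 and 5.23 in S6, or 14.9-fold, 1.27-fold and 37.5-fold. The mean over rats was 3.16 ± 0.94 (moderated SE of the fit), and the SD over rats, at 2.52, was close to the mean. An SE from the rats alone would be wider. Without rat S5 the mean was 4.57 ± 0.36, without S4 it was 2.79 ± 1.43 and without S6 it was 2.13 ± 0.95. Marrow levels lay far below the table's median, so these folds are approximate. Of all probe sets 0.340% had a mean difference of this size or larger in either direction.

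Aldh1a1, the cytosolic retinaldehyde dehydrogenase best known from liver, eye and stem cell assays, was dim on all 6 arrays. It stood at 6.69, 6.35 and 6.62 in blood cultures and 6.50, 6.03 and 5.84 in marrow cultures, and the groups overlapped. The difference was positive in each rat, at 0.19, 0.32 and 0.78, with a mean of 0.43 ± 0.17 (SE). The wide difference of Aldh1a2 was not seen in Aldh1a1, whose largest value within a rat was below 1 log2 unit.

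**Figure D2:**
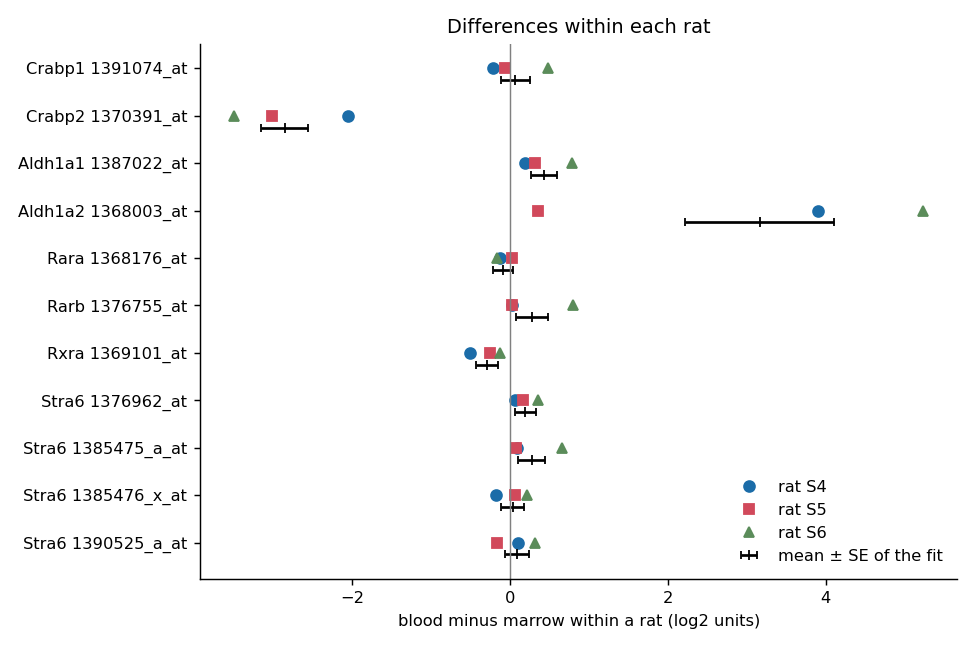
Blood minus marrow difference within each rat, in log2 units, for the 11 probe sets, with 1 symbol per rat and a black bar for the mean ± SE of the fit without a filter. Crabp2 lies between -3.49 and -2.05 in all 3 rats, Aldh1a2 lies at 3.90 and 5.23 in rats S4 and S6 and at 0.35 in rat S5, and the other means lie within 0.5 of 0.

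The receptor genes differed little. Rara, the receptor found in most tissues, stood at 8.54, 8.76 and 8.5 in blood cultures and 8.67, 8.74 and 8.67 in marrow cultures, and all 6 arrays lay within 0.26 log2 units. Its difference was -0.09 ± 0.13 (SE). Rxra, the common heterodimer partner, stood at 6.96, 7.19 and 7.20 in blood cultures and 7.46, 7.44 and 7.33 in marrow cultures. These groups did not overlap, and the difference of -0.29 ± 0.14 was small, ranging from -0.50 in rat S4 to -0.13 in rat S6. Rarb, the receptor induced by its own ligand and the member with the direct repeat shown above, stood at 6.48, 6.65 and 7.43 in blood cultures and 6.46, 6.62 and 6.63 in marrow cultures. A single array, the blood culture of rat S6, lay apart from the other 5, and the mean difference of 0.28 ± 0.21 (SE) became 0.025 without that rat.

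Stra6, the retinol receptor, was measured by 4 probe sets that were made from 2 target sequences and so are not independent. The first of a pair made from 1 target stood at 7.78, 7.76 and 7.85 in blood cultures and 7.72, 7.59 and 7.49 in marrow cultures, a difference of 0.20 ± 0.13 (SE). On the first of the other pair the values were 8.09, 8.10 and 8.17 in blood cultures and 8.0, 8.02 and 7.51 in marrow cultures, a difference of 0.28 ± 0.17. Groups did not overlap on these probe sets and overlapped on the second of each pair, with differences of 0.09 ± 0.15 on the first target and 0.03 ± 0.14 on the other, where the probe set's suffix, x, marks probes that may also bind unrelated transcripts. The marrow array of rat S6 was the lowest of the 6 arrays on all 4 Stra6 probe sets, and on those of Crabp1, Aldh1a1 and Aldh1a2. It was lowest on 7 of 11 member probe sets, against 17.3% of all probe sets and 23.4% of those with a mean below the table's median, and its part in these differences was not tested. Without rat S6 the Stra6 differences on the overlapping probe sets, and that of Crabp1, changed sign.

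By count, 7 of the 11 probe sets differed in the same direction in all 3 rats, against 31.6% of all probe sets. In blood cultures 5 of them had the higher signal and 2 the lower, against 14.5% and 17.1% of all. Groups did not overlap for 5 probe sets, against 16.3% of all, with 3 higher and 2 lower, against 6.95% and 9.39%. A difference of at least 1 log2 unit was found for 2 of 11, against 3.96% of all. The median difference was 0.09 over the 11 and -0.01 over all probe sets. A filter on signal, which asked for values above the table's median on at least 3 of the 6 arrays, was passed by 3 of the 11 probe sets, 1 each of Crabp1, Rara and Stra6, and 0 of these passed the limma threshold, against 2.15% of the 8135 probe sets tested (0.983% higher and 1.17% lower). The 8 below it include Crabp2 and Aldh1a2, each above the median on 2 arrays. Fitted without a filter, 1 of 11, Crabp2, lay past the threshold, against 0.517% of 15866, and 0 did after scaling to a common trimmed mean or quantile normalization, although its difference stayed at -2.85. Without rat S4 or S6 0 of 11 passed, and without rat S5 it was Aldh1a2 and not Crabp2 that passed. Because the genes were chosen on this comparison, nothing is read from these counts.

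**Figure D3:**
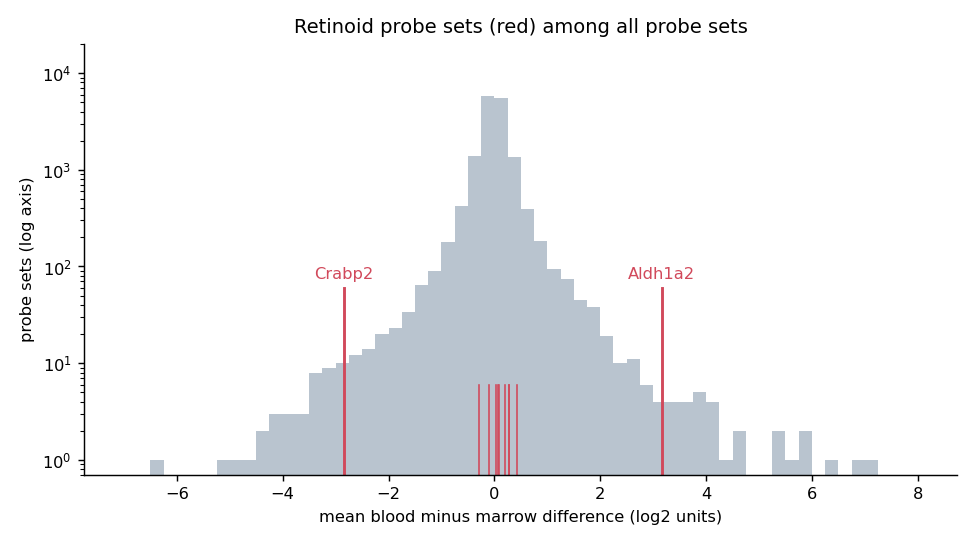
Number of probe sets (log axis) by mean blood minus marrow difference in log2 units, over 15866 probe sets, with the 11 retinoid probe sets as red lines. Crabp2 at -2.85 and Aldh1a2 at 3.16 lie in the tails, and the other 9 lie in the central peak.

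Differences among rats were not used to choose the genes and were tested in the same fit, with limma's moderated F test on the rat terms and the source of the culture as a covariate. Of 8133 probe sets 0 passed at an adjusted p of 0.05, or 0.0%, with a smallest adjusted p of 0.0937 and with 533 at an unadjusted p under 0.05. The 3 tested member probe sets had adjusted p of 0.950, 0.988 and 0.955 in this limma fit. The mean signal of Aldh1a2 over both cultures of a rat was 7.89 in S4, 6.18 in S5 and 8.21 in S6, so the low value of rat S5 was in the blood culture alone, as its marrow culture stood at 6.0, the highest of the 3.

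The other genes of the pathway were taken from 6 lists by role, of 93 genes in all. Of these 70 were named on the array and 39 passed the filter and were tested, of which 0 were higher, 1 was lower and 38 did not pass, or 2.56% past the threshold against 2.15% of all probe sets tested. The gene past the threshold was Nr2f2, the orphan receptor COUP-TFII, which is induced by retinoic acid and competes for its response elements. It stood at 9.20, 9.24 and 9.46 in blood cultures of rats S4, S5 and S6 and 10.26, 10.22 and 10.38 in marrow cultures, so the groups did not overlap and the arrays of each lay close together. It fell by 0.99 ± 0.12 on the log2 scale (SE, limma adjusted p = 0.0187), lower in 3 of 3 rats, or 1.98-fold, and its dimmer probe set, below the filter, differed by -0.40 ± 0.16. The call was lost without rat S4 (adjusted p = 0.266), without rat S6 (adjusted p = 0.144) and without a filter (adjusted p = 0.0718), with differences of -0.95, -1.02 and -0.99. Over all alternatives its adjusted p lay between 0.011 and 0.266. The median difference of the 39 genes was 0.06, with 24 above 0, against a median of -0.01 for all probe sets tested. Nothing is read from this count.

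Among carriers, Fabp5, which can hand retinoic acid to PPAR-delta, was the 1 gene tested of 9 listed, and averaged 12.18 ± 0.14 in blood cultures, against 11.79 ± 0.33 in those from marrow (SD, n = 3; limma adjusted p = 0.400). Rbp4, the carrier of retinol in blood, lay below the filter. It is named with its values known, and its signals were 5.25, 6.61 and 5.19 in blood cultures and 7.49, 8.15 and 5.46 in marrow cultures, lower in the blood culture of each rat with overlapping groups. Of 25 genes listed as retinol and retinal enzymes, 6 were tested and 0 passed. Aldh1a3, of the ALDH1A family, was in this list but not named on the array. Aox1, an aldehyde oxidase that can act on retinal, had the widest difference of the 6, at -1.22 ± 0.36, with values of -0.28, -2.25 and -1.12 within rats S4, S5 and S6 (limma adjusted p = 0.214), and was -0.70 without rat S5. Dhrs4, a retinal reductase, differed by 0.25 ± 0.15, Adh5, a class III alcohol dehydrogenase, by -0.14 ± 0.15, and Rdh11, a retinal reductase, by -0.09 ± 0.16 (limma adjusted p = 0.552, 0.797 and 0.898), and that of Dhrs4 was 0.41 without rat S5.

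Of 6 genes for breakdown of retinoic acid 2 were tested and 0 passed. Cyp1b1 differed by 0.22 ± 0.20, or 0.395 without rat S5, and Ugt2b7, a glucuronosyltransferase, by 0.03 ± 0.12. The dedicated enzymes lay below the filter and are named for their role after their values were seen. Cyp26a1 had 6.02, 6.74 and 6.20 in blood cultures, against 6.45, 6.39 and 6.35 in those from marrow, and Cyp26b1 was listed at 0 in the blood culture of rat S4 and at 5.50 and 4.26 in those of S5 and S6, against 1.80, 4.80 and 2.22 in marrow cultures. Neither separated the groups.

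**Figure D4:**
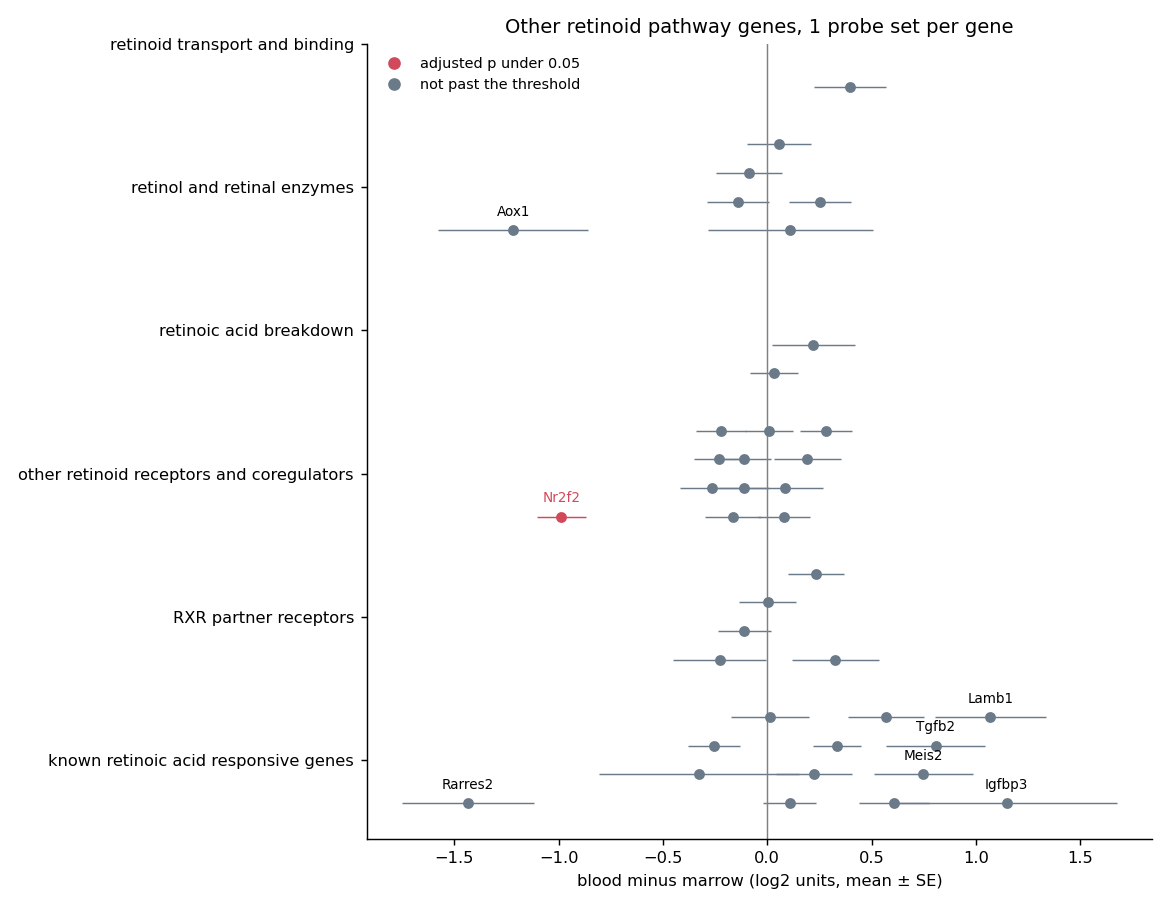
Blood minus marrow difference in log2 units, mean ± SE of the fit with a filter, for the 39 other retinoid pathway genes tested, by list. Nr2f2 at -0.99, in red, is the gene past an adjusted p of 0.05, and Aox1 and Rarres2 below 0 and Lamb1 and Igfbp3 above 0 have wider differences and wider errors.

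Of 17 other receptors and coregulators 12 were tested, and Nr2f2 was the 1 past the threshold. Rarg, the third retinoic acid receptor, stood at 8.87, 8.65 and 8.96 in blood cultures and 8.86, 8.60 and 9.0 in marrow cultures, with a difference of 0.01 ± 0.11 (limma adjusted p = 0.991). Of the others the smallest p were those of Med1, a Mediator subunit, at 0.28 ± 0.12 on its brighter probe set and -0.05 on the other, the corepressor-bound deacetylase Hdac3 at -0.23 ± 0.12 and the coactivator Ncoa6 at -0.22 ± 0.12 (limma adjusted p = 0.402, 0.480 and 0.517). Of 11 nuclear receptors that pair with RXR 5 were tested and 0 passed, with Nr1h4 at 0.23 ± 0.14, Nr4a2 at 0.33 ± 0.21, Nr4a1 at -0.23 ± 0.22 and Nr1h2 at -0.11 ± 0.13. Without rat S5 the difference of Nr4a1 was -0.535.

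Of 25 genes known to respond to retinoic acid in other cells, 13 were tested and 0 passed. Of the 13, 10 had a difference above 0, and the median was 0.33. The median of all probe sets tested was -0.01, so their signs were nearly balanced. Over all 18 named on the array, with those below the filter, 11 were above 0. Their median was 0.17. The filter can admit genes through a high signal in blood cultures alone, as with Epha2. A lean was not tested, and none is read from these counts. Of the 4 with the smallest p, 3 were above 0 and 1 below. Rarres2, which encodes the adipokine chemerin, differed by -1.43 ± 0.32, Lamb1, a laminin chain, by 1.07 ± 0.27, Epha2, an ephrin receptor, by 0.61 ± 0.17 and Tgfb2, a TGF-beta ligand, by 0.81 ± 0.24 (limma adjusted p = 0.114, 0.152, 0.188 and 0.214). Epha2 passed the filter only through its 3 blood arrays, so a higher blood value was built into its entry to the test. Without rat S5, 4 pathway genes passed, namely Nr2f2, Rarres2, Meis2 and Tgfb2, against 1 with all rats. The difference of Tgfb2 was then 1.16 and that of Rarres2 -1.74.

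Several other genes also set the blood culture of rat S5 apart, and are named after their values were seen. Dhrs3, a retinal reductase induced by retinoic acid, had signals of 9.85, 8.42 and 11.0 in the blood cultures of rats S4, S5 and S6 and 9.57, 9.48 and 9.89 in marrow cultures, and Tgfb2 had 11.13, 9.78 and 11.37 in blood cultures, against 10.04, 9.67 and 10.15 in those from marrow. Both were lowest among blood cultures in that of rat S5, as was Aldh1a2. In the other direction Lum, a small leucine-rich proteoglycan of stroma, had 8.11, 11.92 and 9.79 in blood cultures, against 12.01, 11.72 and 11.88 in those from marrow. Dcn, the related decorin, had 10.55, 12.89 and 10.44 in blood cultures, against 12.57, 12.83 and 12.63 in those from marrow. Thy1, a stromal surface marker, had 7.02, 9.42 and 7.41 in blood cultures, against 9.38, 7.68 and 9.84 in those from marrow. Its within-rat difference was 1.74 in S5 and below -2 in the others. The rest of the stromal list was mixed. In blood cultures Pdgfra, at 8.91, 10.84 and 9.65, was also highest in rat S5. Vcam1, at 11.60, 10.08 and 11.75, and Eng, at 10.52, 10.27 and 10.72, were lowest there. The blood culture of rat S5 was not like its own marrow culture throughout, with differences of -1.06 in Dhrs3, 1.11 in Eng, 1.09 in Nt5e and -1.10 in Pdgfra. Its Crabp2, at 5.40, was at the level of the other blood cultures.

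**Figure D5:**
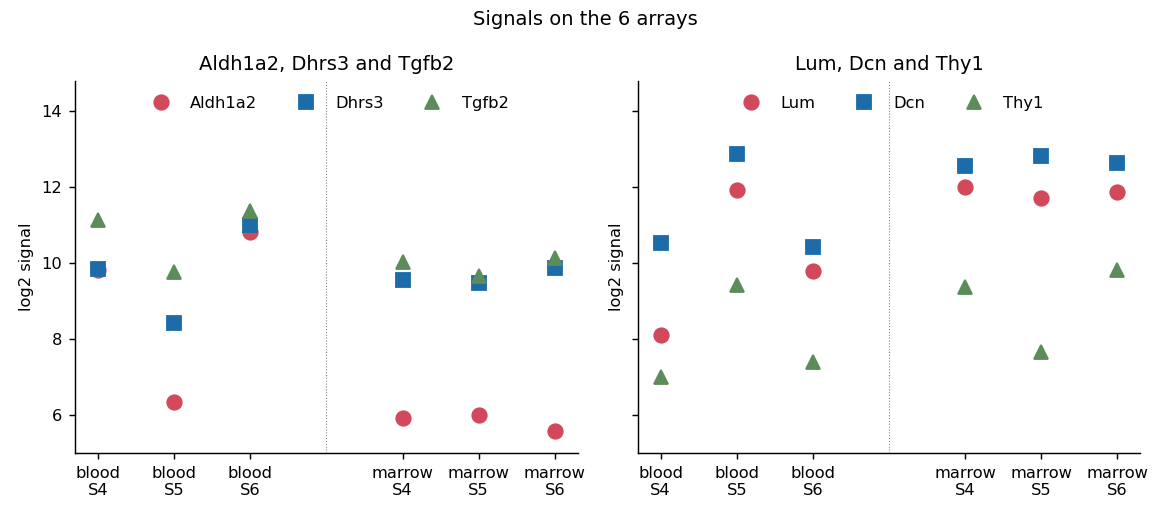
Log2 signals on the 6 arrays, blood cultures at left and marrow cultures at right in each panel, of Aldh1a2, Dhrs3 and Tgfb2 (left panel) and of Lum, Dcn and Thy1 (right panel). In the blood culture of rat S5 the first 3 genes are lower and the other 3 higher than in the blood cultures of rats S4 and S6.

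Marker lists of other cell types are given beside Aldh1a2 and Crabp2, as values measured on the same arrays. Of 11 mesothelial and epithelial markers 8 were named on the array and 2 were tested, of which Wt1 rose by 3.83 ± 0.19 (SE, limma adjusted p = 0.002605) and Msln fell by 1.24 ± 0.11 on the log2 scale (limma adjusted p = 0.009108), each in 3 of 3 rats. Wt1 passed the filter only through its 3 blood arrays, so a difference was built into its entry to the test. Wt1, a mesothelial and epicardial regulator, stood at 9.38, 9.06 and 8.72 in blood cultures and 5.23, 5.07 and 5.37 in marrow cultures, so it was high in the blood culture of rat S5, where Aldh1a2 was low. Its other probe set, below the filter, differed by 0.45 ± 0.13 (SE). The summed linear signal of that list was 1079 to 1190 in blood and 1373 to 1834 in marrow cultures. In these sums each gene was entered by its brightest probe set by mean over the 6 arrays. For Wt1 that was the other probe set, so the rise of 3.83 is not in the sum. The 15 macrophage markers on the array summed to 12510 to 17330 in blood, lowest in rat S5, and 8440 to 17950 in marrow cultures, and 0 of the 10 tested passed in limma. The 6 endothelial markers on the array summed to 870 to 944 in blood and 863 to 990 in marrow cultures. For the 5 neural crest and glial ones the sums were 954 to 1107 in blood and 1062 to 2638 in marrow cultures. The upper marrow sum is mostly S100b in rat S6, at 10.93, against 8.76 and 8.02 in the marrow cultures of rats S4 and S5. No marker of these lists was listed at 0, and the part of such cells in the differences was not tested.

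Genes with the most similar values over the 6 arrays were sought for each member among 6094 other genes above the filter (6095 for members below it), by Pearson correlation, as a description. The arrays share source and rat, and the highest of so many correlations over 6 points are high in any case. For the members above the filter they were Gipr, Echdc2 and Brd7 for Crabp1 (r = 0.986, 0.984 and 0.980), Angptl8, Rpusd1 and Cd248 for Rara (r = 0.998, 0.986 and 0.979) and Cdk18, Lrch4 and Mapkapk2 for Stra6 (r = 0.985, 0.982 and 0.979). For members below it, added after the values were seen, Crabp2 was most like Ttc28, H19 and Psmd10 (r = 0.990, 0.988 and 0.986). H19, an imprinted noncoding RNA, had 8.19, 8.73 and 8.15 in blood cultures, against 10.51, 12.47 and 12.22 in those from marrow, with the marrow culture of rat S4 lowest, as for Crabp2. Aldh1a2 was most like Paqr8, Tpm1 and Rassf3 (r = 0.993, 0.988 and 0.982). Paqr8, a membrane progestin receptor, had 9.91, 9.36 and 9.96 in blood cultures, against 9.28, 9.37 and 9.28 in those from marrow, a far smaller span than that of Aldh1a2. The most like genes of the other members below the filter were Il17ra for Aldh1a1 (r = 0.976), Gltp for Rarb (r = 0.945) and Ptov1 for Rxra (r = 0.988).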

How the data were processed

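Signals of 15923 probe sets on 6 arrays were used as deposited by the authors, on a log scale taken as log2 because the values run from 0 to 13.31; the base is not stated, and folds depend on it. GCOS is the tool named in the submitters' processing notes; no source used here gives the probe summary, background correction or normalization. Of the cells 86 were empty and were left so, which removed 2 probe sets from the test among rats. The pseudocount was 0, and 57 control probe sets were left out.

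The fit of blood against marrow cultures used limma 3.58.1 (R 4.3.3), two-sided with Benjamini-Hochberg adjustment and a threshold of 0.05, with the rat as a fixed term, since the series' design text pairs the cultures by animal. As a check, the correlation between both arrays of a rat, after subtracting group means, was -0.29, 0.30 and 0.33. For arrays of different rats it was -0.47 to 0.42. These ranges overlap, and 3 pairs are too few to decide whether same-rat arrays were more alike. The pairing rests on the design text. The filter kept 8135 probe sets with signal above 8.18, the table's median, on at least 3 arrays. A gene with several such probe sets was represented by the brightest. An exact permutation test over 3 pairs cannot go below p = 0.25 and was not used. Members, lists and motifs were chosen with earlier results of these data known; all member probe sets, the 4 genes of smallest p per list and any gene past the threshold, and the 3 genes most like each member were to be named. Of probe sets 12789 had 1 symbol, 312 several and 2822 none. The fit was tested on simulated data. Protein and probe sequences were not used here. The number of arrays limits the precision. Alternatives were other filters and normalizations, an intensity trend, no pairing, fluidics station or module, and leaving out each rat. Tables were made with pandas 2.3.3 and numpy 2.4.6 in Python 3.11.15, figures with matplotlib 3.10.9.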

Additional observations from a re-analysis of the deposited data

How the results depend on the processing

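Over all genes 175 probe sets passed the limma threshold, against 109 after scaling to a common trimmed mean, 107 after quantile normalization, 82 with no filter, 76 with the fluidics module as a random block in place of the rat, and 0 to 406 when 1 rat was left out. At 0, without rat S4, 770 had an unadjusted p under 0.05. Without the pairing (no replicate block) 130 passed; Nr2f2 was among the calls in both. Other retinoid pathway genes past the threshold numbered 1, against 0 with no filter (14 at an unadjusted p under 0.05) and 0 to 4 when 1 rat was left out; the 0 came without rats S4 and S6 (3 and 4 at an unadjusted p under 0.05). Member probe sets past it, fitted without a filter, numbered 1, against 0 after scaling, 0 after quantile normalization, 0 with the filter at the table's median and 0 to 1 when 1 rat was left out (2, 3 and 0 at an unadjusted p under 0.05 for the first 3 settings). The count among rats stayed at 0 in every setting run. Of the 11 member probe sets 8 kept their sign in all 9 alternatives of the fit, and 3 changed it without rat S6. The module block used the module number, pooled over stations, and together with the rat as a fixed term it could not be fitted. The station is a grouping of the rats and is held by the rat term. Signals below the table's median have no known background, which limits the folds of Crabp2 and Aldh1a2. The cause of the changes was not tested.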
